A study of Mus musculus with 18 samples.

Results

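The glycolysis, pentose phosphate and hypoxia genes described here are 32 mouse genes chosen by symbol: glucose and lactate transporters and the enzymes that carry glucose to pyruvate and lactate, pyruvate dehydrogenase and its kinase, enzymes of the pentose phosphate pathway, and HIF1A with genes known to respond to it. The symbols matched 33 of the 54532 rows of the count table. Aldoa has a second row (ENSMUSG00000114515) with 63 counts over all libraries, which did not pass the filter on low counts, so 32 rows were among the 13267 genes tested, 1 for each member. RNA was sequenced from primary mouse microglia, grown for 10 days in mixed culture of cells from pups of postnatal day 0 to 3 and then isolated and plated. There were 6 groups of 3 libraries. R47H/+ cells carry 1 hTrem2 R47H allele, that is the variant of the microglial receptor gene TREM2 linked to Alzheimer's disease, and were studied in 4 groups: MK-2206 with tau, MK-2206 alone, tau alone, and neither. Trem2+/+ cells (mTrem2 +/+) were studied with tau and without it. Tau was given as fibrils of the 0N4R isoform at 1 ug/ml, MK-2206, an allosteric inhibitor of the kinase Akt, at 1 uM, and the pre-treatment with MK-2206 or 0.01% DMSO lasted 6 hours. No group of Trem2+/+ cells received MK-2206, so no comparison of MK-2206 between genotypes was made. The labels do not say whether the 3 replicates of a group are separate cultures; each p-value therefore rests on the spread between libraries, and that spread may be technical.

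Cells take up glucose through SLC2A transporters, trap it with hexokinase and commit it to glycolysis at phosphofructokinase, and lactate dehydrogenase and lactate exporters keep the pathway running when pyruvate is not sent to mitochondria. The pentose phosphate pathway leaves glycolysis at glucose phosphate and supplies NADPH and ribose. The transcription factor HIF1A, kept low in oxygen by prolyl hydroxylases of the EGLN family, raises transcription of many of these genes, and Akt acts on glucose uptake and on mTORC1. Myeloid cells, microglia included, are known to turn to glycolysis when activated by inflammatory stimuli.

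The promoters of 16 members hold ACGTG on either strand, a core sequence of the element through which HIF1A is known to act. The 4 printed here were picked among those 16. They belong to a glucose carrier, a lactate exporter and a pair of lower glycolysis enzymes whose values are described below. Promoter windows from RefSeq (build GRCm38.p6, the 250 bases before each start) were found for 30 of the 32 members, in 44 windows. The motif searched was ACGTG or its reverse complement CACGT, on both strands, which overlaps the E-box CACGTG bound by MYC and other factors. It was in 19 of the 44 member windows (43.2%), of 16 members, and in 5444 of all 32851 windows (16.6%). Members with no match in any window included Eno1, Gapdh, Tpi1, Pfkl, Pdk1, Pgd, G6pdx, Taldo1 and Tkt. The E-box was in 5 of the member windows (11.4%) and in 6.02% of all windows. In the sequences, read 5′ to 3′ on the + strand, capitals mark the motif, and a window that runs into an annotated exon of the gene ends at that exon or at the last match. The Slc2a1 sequence is chr4:119108495-119108713, the Slc16a3 sequence chr11:120948817-120949057, the Pgk1 sequence chrX:106186850-106187099 and the Ldha sequence chr7:46845554-46845803. A match of letters is a description of the window and not a measured binding site.
Slc2a1: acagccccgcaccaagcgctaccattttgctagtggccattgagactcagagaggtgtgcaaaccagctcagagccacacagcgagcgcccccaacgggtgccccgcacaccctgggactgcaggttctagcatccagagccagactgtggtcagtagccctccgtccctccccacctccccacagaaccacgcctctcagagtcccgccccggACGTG
Slc16a3: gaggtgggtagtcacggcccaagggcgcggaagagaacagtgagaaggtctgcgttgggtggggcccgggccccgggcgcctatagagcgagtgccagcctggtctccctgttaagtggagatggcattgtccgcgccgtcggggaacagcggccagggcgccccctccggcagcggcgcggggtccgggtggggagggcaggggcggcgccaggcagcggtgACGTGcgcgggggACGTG
Pgk1: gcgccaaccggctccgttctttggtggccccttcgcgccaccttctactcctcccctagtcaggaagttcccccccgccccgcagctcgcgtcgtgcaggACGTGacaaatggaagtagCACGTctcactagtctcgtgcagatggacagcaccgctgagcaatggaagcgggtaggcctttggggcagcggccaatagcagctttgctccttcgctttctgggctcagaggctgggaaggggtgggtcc
Ldha: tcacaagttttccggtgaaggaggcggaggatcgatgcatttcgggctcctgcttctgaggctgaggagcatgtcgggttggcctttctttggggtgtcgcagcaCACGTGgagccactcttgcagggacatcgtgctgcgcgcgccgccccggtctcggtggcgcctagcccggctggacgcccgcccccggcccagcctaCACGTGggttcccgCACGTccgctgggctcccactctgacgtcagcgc
The printed Ldha window holds 5 matches counted over both strands, 4 of which form 2 E-boxes. A second Ldha window, not printed, holds 0. The Pgk1 and Slc16a3 windows hold 2 each, and the Slc2a1 window holds 1.

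Library totals lay between 16288531 and 20686299 counts. In 2 libraries the counts shifted with gene length relative to their group: log2 CPM (counts scaled to the size of the library) changed by -1.27 per 10-fold of length in Trem2+/+ replicate 3 and by -0.60 in R47H/+ with tau replicate 2, against -0.10 to 0.19 in the other 16 libraries. Each count of members below is therefore also given without both of these libraries, an alternative added after seeing the data. All 12 microglia markers were tested and summed to 6917 to 13322 CPM in a library, although 2 that define microglia in the brain were low, Tmem119 at 0.31 to 2.53 CPM and P2ry12 at 7.64 to 43.8 CPM. Markers of astrocytes (10 genes) summed to 54.9 to 107 CPM, of the oligodendrocyte lineage (10) to 220 to 306 CPM, of neurons (8) to 1.61 to 4.45 CPM, of fibroblasts and vessels (9) to 5.33 to 103 CPM, and of border macrophages, monocytes and granulocytes (10) to 394 to 561 CPM; Cldn5, S100a9 and Ly6g were at 0 in all 18 libraries. The sums moved with tau, most of them through 1 or a few genes of each list. Astrocyte markers summed to 95.1 to 107 CPM with MK-2206 and tau, against 54.9 to 71.1 CPM with MK-2206 alone, to 79.7 to 104 CPM in R47H/+ with tau, against 66.8 to 70.3 CPM without, and to 92.6 to 102 CPM in Trem2+/+ with tau, against 62.0 to 107 CPM without. In that order Aldh1l1 averaged 85.8, 73.1 and 71.2 CPM with tau, against 39.0, 50.5 and 27.2 CPM without, while Fabp7 averaged 7.76, 7.01 and 10.3 CPM with tau, against 16.9, 9.56 and 31.3 CPM without, and Aldoc was lower with tau too. Fibroblast and vessel markers summed to 97.8 to 103, 56.3 to 93.6 and 40.3 to 45.2 CPM with tau, against 31.0 to 33.9, 25.5 to 33.4 and 5.33 to 13.04 CPM without, nearly all of it Kdr, so that this sum was also higher in R47H/+ than in Trem2+/+. Oligodendrocyte markers summed to 284 to 288, 271 to 305 and 282 to 306 CPM with tau, against 224 to 235, 242 to 245 and 219.7 to 259.8 CPM without, with Cnp higher and Mbp lower with tau. The border macrophage, monocyte and granulocyte sum was 395 to 458, 394 to 402 and 487 to 561 CPM with tau, against 522 to 547, 473 to 523 and 396 to 561 CPM without, with Mrc1 lower and Ly6c2 higher with tau. Microglia markers summed to 9223 to 9612, 9657 to 13135 and 8482 to 9703 CPM with tau, against 6917 to 7504, 9121 to 9365 and 7219 to 13322 CPM without. The part of these cells in the results below was not tested, and in bulk RNA fewer cells of a type and less RNA per cell cannot be told apart. The mouse Trem2 row had 451, 454 and 489 CPM in R47H/+ and 945, 935 and 1894 CPM in Trem2+/+; how reads of the hTrem2 allele were counted is not given in the sources used here.

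CPM were scaled by the trimmed mean of M values (TMM), and levels of different genes are compared per kilobase (kb) of gene length. By mean CPM per kb over the 6 groups, Aldoa was highest at 314, followed by Gapdh at 239, Pkm at 212, Ldha at 153, Taldo1 at 145 and Hk3 at 124. Slc2a3 was lowest at 0.16, below Egln3 at 1.12 and Vegfa at 3.00. Among the 3 hexokinases the order per kb was Hk3, then Hk2 at 15.7 and Hk1 at 5.22. Among the phosphofructokinases it was Pfkl at 12.2, Pfkp at 3.68 and Pfkm at 3.25. The largest ratio between the highest and the lowest group mean was that of Egln3, 5.18, and the smallest were those of Hif1a, 1.23, and Ero1l, 1.24.

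Of the 8 lower glycolysis genes, 7 were lower in R47H/+ than in Trem2+/+ without tau and 7 were higher with tau than without it in R47H/+ cells. Both comparisons hold the same R47H/+ libraries without tau, so these counts are not independent. A gene was called where the adjusted p of edgeR's quasi-likelihood test was under 0.05, adjusted by Benjamini-Hochberg over all 13267 genes. Without tau, 16 of the 32 members were lower and 1 was higher in R47H/+ than in Trem2+/+, where 6.83% of all genes tested were lower and 8.22% higher. With tau on both genotypes, 4 members were lower and 0 higher in R47H/+ than in Trem2+/+ (4.24% of all genes lower, 5.25% higher). Tau raised 15 members and lowered 2 in R47H/+ cells (15.0% of all genes higher, 12.6% lower), raised 6 and lowered 2 in Trem2+/+ cells (14.4% higher, 12.1% lower), and raised 8 and lowered 4 in R47H/+ cells with MK-2206 (14.3% higher, 11.3% lower). MK-2206 alone changed 0 members of R47H/+ cells by this test (1.19% of all genes higher, 1.36% lower). With tau, 2 members were lower with MK-2206 than without it (1.64% of all genes higher, 1.40% lower). The 28 members called in any comparison leave 4, Hif1a, Pfkm, Pdha1 and Ero1l, that were called in none of the 9 pairwise comparisons or the 2 interactions.

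**Figure D1:**
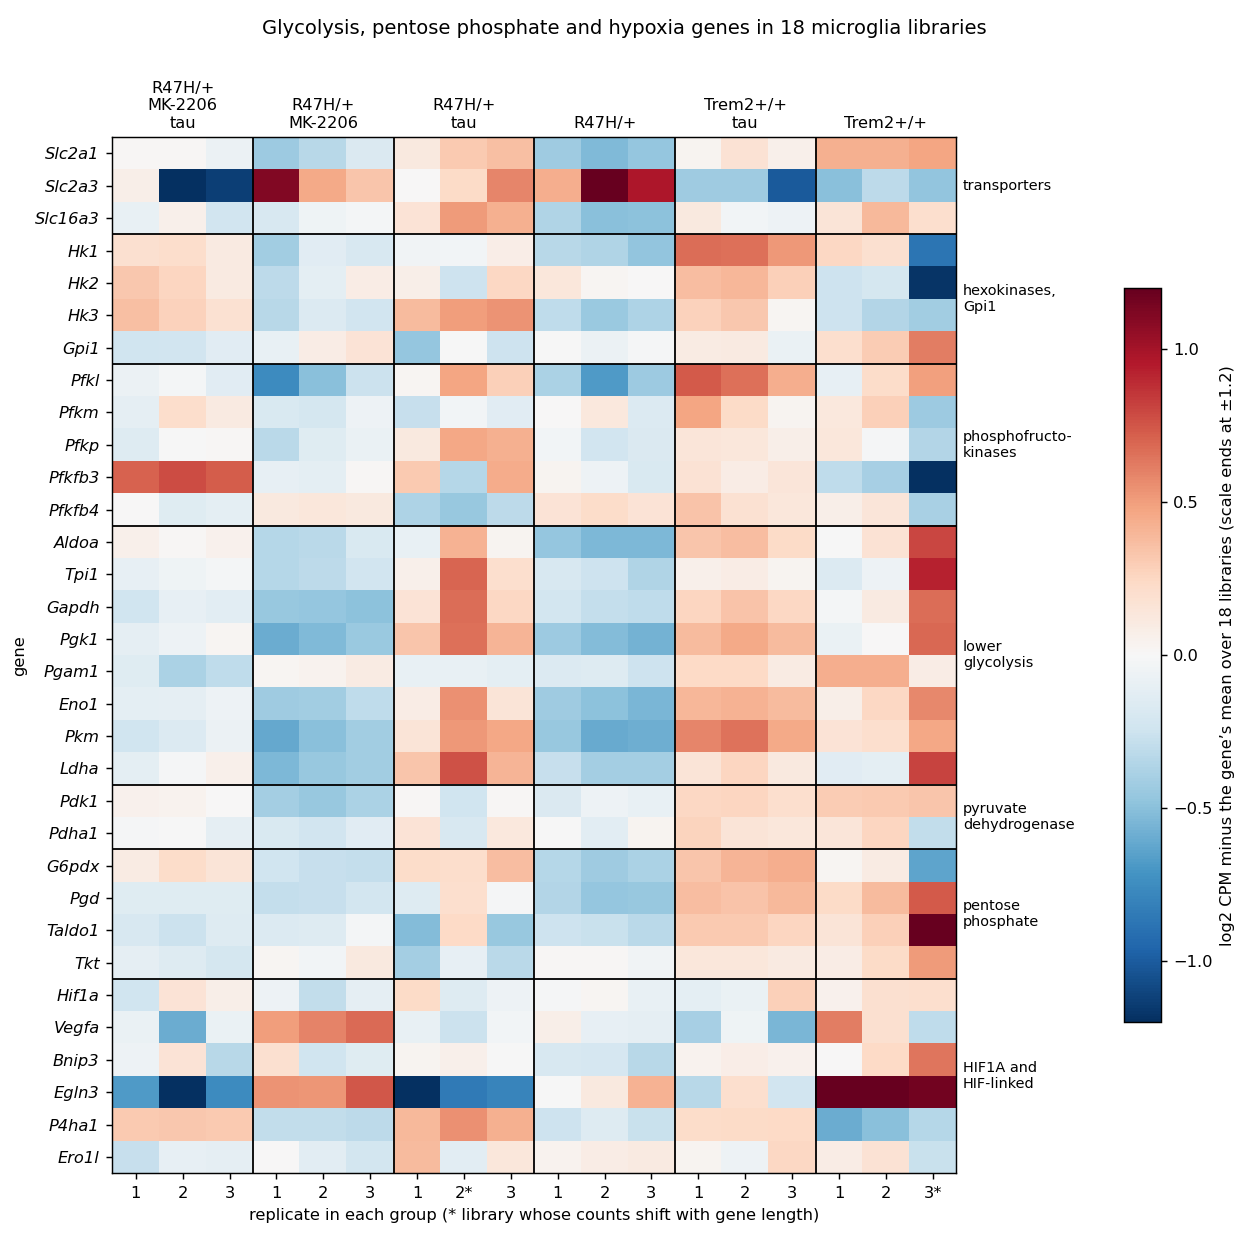
Level of each of the 32 members (rows, grouped by role) in each of the 18 libraries (columns, grouped by genotype and treatment), as log2 CPM minus the gene's mean over the libraries; red is higher and blue lower, and the 2 length-shifted libraries are starred. The lower glycolysis rows are blue in R47H/+ without tau, with and without MK-2206 (Pgam1 with MK-2206 apart), and most reach their reddest cells in the starred libraries, R47H/+ with tau replicate 2 and Trem2+/+ replicate 3.

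Among the transporters, Slc2a1 (ENSMUSG00000028645, chr4:119108711-119137983, + strand, build GRCm38) encodes GLUT1, the main glucose carrier of many cell types. With tau, Slc2a1 had 55.1, 55.2 and 52.0 CPM in R47H/+ with MK-2206, 59.3, 68.0 and 69.9 CPM in R47H/+, and 56.0, 61.6 and 56.8 CPM in Trem2+/+. Without tau, Slc2a1 stood at 40.5, 43.3 and 48.5 CPM in R47H/+ with MK-2206, 40.7, 37.8 and 39.7 CPM in R47H/+, and 73.5, 73.2 and 75.9 CPM in Trem2+/+. The 3 Trem2+/+ libraries without tau stood above all 15 others, and the 3 R47H/+ libraries without tau lay below every library of both genotypes with tau. Slc16a3 encodes the lactate exporter MCT4. With tau, Slc16a3 was at 32.5, 36.1 and 29.4 CPM in R47H/+ with MK-2206, 38.7, 49.4 and 46.6 CPM in R47H/+, and 37.5, 33.8 and 33.2 CPM in Trem2+/+. Without tau, Slc16a3 had 30.3, 33.4 and 34.1 CPM in R47H/+ with MK-2206, 27.0, 24.4 and 24.6 CPM in R47H/+, and 38.6, 45.3 and 39.7 CPM in Trem2+/+. It was lowest in the 3 R47H/+ libraries without tau or inhibitor, which overlapped no other group, and the R47H/+ libraries with tau were above those of Trem2+/+ with tau. Slc2a3 encodes GLUT3, best known from neurons, and its row held only 7 to 43 counts in a library. With tau, Slc2a3 stood at 1.08, 0.45 and 0.47 CPM in R47H/+ with MK-2206, 1.03, 1.21 and 1.54 CPM in R47H/+, and 0.77, 0.76 and 0.51 CPM in Trem2+/+. Without tau, Slc2a3 was at 2.23, 1.40 and 1.30 CPM in R47H/+ with MK-2206, 1.39, 2.51 and 2.01 CPM in R47H/+, and 0.73, 0.83 and 0.74 CPM in Trem2+/+. Without tau, every R47H/+ library, with or without MK-2206, was above every Trem2+/+ library. The Slc2a3 row overlaps the pseudogene Gm4482, whose own row held 20 counts over all libraries.

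Hexokinases phosphorylate glucose and so trap it in the cell. Hk2, the inducible form, lies at ENSMUSG00000000628, chr6:82725025-82774454, - strand. With tau, Hk2 had 114, 109 and 98.1 CPM in R47H/+ with MK-2206, 95.4, 76.3 and 108 CPM in R47H/+, and 118, 119.8 and 111 CPM in Trem2+/+. Without tau, Hk2 stood at 73.2, 84.1 and 96.6 CPM in R47H/+ with MK-2206, 100.1, 92.4 and 91.3 CPM in R47H/+, and 76.4, 78.7 and 40.2 CPM in Trem2+/+. Trem2+/+ replicate 3, 1 of the length-shifted libraries, was the lowest of all 18, and the other Trem2+/+ libraries without tau were still below those with tau. Hk1 is the form present in most tissues. With tau, Hk1 was at 48.9, 49.7 and 46.1 CPM in R47H/+ with MK-2206, 41.6, 42.0 and 45.3 CPM in R47H/+, and 68.3, 67.8 and 61.5 CPM in Trem2+/+. Without tau, Hk1 had 32.02, 39.0 and 37.5 CPM in R47H/+ with MK-2206, 33.9, 33.4 and 30.9 CPM in R47H/+, and 50.9, 48.9 and 23.4 CPM in Trem2+/+. The 3 Trem2+/+ libraries with tau were above all others. Hk3 is the hexokinase typical of myeloid cells. With tau, Hk3 stood at 569, 539 and 503 CPM in R47H/+ with MK-2206, 578, 629 and 646 CPM in R47H/+, and 539, 555 and 450.1 CPM in Trem2+/+. Without tau, Hk3 was at 353, 396 and 379 CPM in R47H/+ with MK-2206, 359.6, 327 and 344 CPM in R47H/+, and 374, 348 and 332 CPM in Trem2+/+. In each of the 3 kinds of culture the tau libraries were above the libraries without tau. Gpi1, which interconverts glucose phosphate and fructose phosphate, ranged between 212 and 447 CPM.

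Phosphofructokinase carries out the committed step of glycolysis, and PFKFB enzymes make and remove its allosteric activator. Pfkfb3 (ENSMUSG00000026773, chr2:11471433-11554077, - strand) favours making the activator. With tau, Pfkfb3 had 229, 241 and 232 CPM in R47H/+ with MK-2206, 173, 110.4 and 191 CPM in R47H/+, and 158, 149 and 155 CPM in Trem2+/+. Without tau, Pfkfb3 stood at 131, 129 and 141 CPM in R47H/+ with MK-2206, 143, 134 and 123 CPM in R47H/+, and 113, 106 and 37.1 CPM in Trem2+/+. The MK-2206 and tau libraries were the highest 3 of the 18, and Trem2+/+ replicate 3 was the lowest. Pfkfb4 is a second PFKFB enzyme. With tau, Pfkfb4 was at 66.7, 60.1 and 60.9 CPM in R47H/+ with MK-2206, 51.4, 48.4 and 53.2 CPM in R47H/+, and 84.0, 75.3 and 72.7 CPM in Trem2+/+. Without tau, Pfkfb4 had 71.7, 72.7 and 71.8 CPM in R47H/+ with MK-2206, 74.3, 77.2 and 74.4 CPM in R47H/+, and 69.4, 73.1 and 50.5 CPM in Trem2+/+. The 3 R47H/+ libraries with tau lay below those of every other group except Trem2+/+ replicate 3. Pfkl is the liver-type phosphofructokinase. With tau, Pfkl stood at 73.8, 76.1 and 70.3 CPM in R47H/+ with MK-2206, 78.7, 108 and 94.3 CPM in R47H/+, and 129, 122 and 105 CPM in Trem2+/+. Without tau, Pfkl was at 45.8, 54.6 and 64.9 CPM in R47H/+ with MK-2206, 59.6, 48.4 and 57.1 CPM in R47H/+, and 72.6, 90.1 and 109 CPM in Trem2+/+. The 2 highest libraries were Trem2+/+ with tau replicates 1 and 2, and the Trem2+/+ groups with and without tau overlapped. Pfkm ranged between 7.96 and 14.9 CPM and Pfkp between 38.3 and 67.3 CPM; both rows overlap a gene on the opposite strand (Senp1 and Pitrm1), and since the strand setting of the counting is not given in the sources used here, reads of the pairs cannot be told apart.

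The lower part of glycolysis splits fructose bisphosphate and carries the carbon to pyruvate and lactate, making ATP. Ldha (ENSMUSG00000063229, chr7:46841475-46855627, + strand), a subunit of lactate dehydrogenase, turns pyruvate into lactate. With tau, Ldha had 451, 484 and 509 CPM in R47H/+ with MK-2206, 613, 831 and 646 CPM in R47H/+, and 542, 582 and 529.5 CPM in Trem2+/+. Without tau, Ldha stood at 335, 355 and 364 CPM in R47H/+ with MK-2206, 402, 368 and 368 CPM in R47H/+, and 443, 449.6 and 855 CPM in Trem2+/+. The 2 highest libraries were the 2 length-shifted ones, and the tau libraries of R47H/+ were above all R47H/+ libraries without tau. Pkm, pyruvate kinase, makes pyruvate. With tau, Pkm was at 859, 901 and 962 CPM in R47H/+ with MK-2206, 1124, 1446 and 1394 CPM in R47H/+, and 1517, 1585 and 1386 CPM in Trem2+/+. Without tau, Pkm had 659, 715 and 759 CPM in R47H/+ with MK-2206, 736, 666 and 674 CPM in R47H/+, and 1136, 1166 and 1391 CPM in Trem2+/+. The 6 R47H/+ libraries without tau were the lowest of the 18, and all Trem2+/+ libraries were above them. Pgk1, phosphoglycerate kinase, makes the first ATP of the pathway. With tau, Pgk1 stood at 196, 202 and 214 CPM in R47H/+ with MK-2206, 264, 333 and 279.5 CPM in R47H/+, and 274, 288 and 274 CPM in Trem2+/+. Without tau, Pgk1 was at 139, 145 and 154 CPM in R47H/+ with MK-2206, 155, 147 and 142 CPM in R47H/+, and 199.6, 211 and 338 CPM in Trem2+/+. R47H/+ without tau lay below Trem2+/+ without tau, and tau libraries of R47H/+ overlapped those of Trem2+/+. Gapdh, widely used as a reference gene, catalyses the step before Pgk1. With tau, Gapdh had 814, 893 and 879 CPM in R47H/+ with MK-2206, 1077, 1527 and 1136 CPM in R47H/+, and 1149.7, 1214 and 1135 CPM in Trem2+/+. Without tau, Gapdh stood at 701, 693 and 679.8 CPM in R47H/+ with MK-2206, 823, 787 and 778 CPM in R47H/+, and 945, 1031 and 1529 CPM in Trem2+/+. Every MK-2206 library without tau was below every other library.
Eno1, an enolase, had its lowest group in R47H/+ without tau. With tau, Eno1 was at 419, 422 and 434 CPM in R47H/+ with MK-2206, 482, 663 and 507 CPM in R47H/+, and 599, 608 and 589.8 CPM in Trem2+/+. Without tau, Eno1 had 339, 341 and 368 CPM in R47H/+ with MK-2206, 338, 324 and 311 CPM in R47H/+, and 478, 540.4 and 679.8 CPM in Trem2+/+. The 6 R47H/+ libraries without tau lay below all 12 others. Pgam1 is phosphoglycerate mutase. With tau, Pgam1 stood at 123, 105 and 110.4 CPM in R47H/+ with MK-2206, 128, 129 and 126 CPM in R47H/+, and 161, 161 and 147 CPM in Trem2+/+. Without tau, Pgam1 was at 139, 141 and 146 CPM in R47H/+ with MK-2206, 122, 123 and 115 CPM in R47H/+, and 185, 185 and 145 CPM in Trem2+/+. Its highest libraries were Trem2+/+ replicates 1 and 2, and MK-2206 with tau was below MK-2206 alone. Aldoa, an aldolase, ranged between 609 and 1549 CPM and Tpi1, triose phosphate isomerase, between 141 and 344 CPM, with the highest value of both in Trem2+/+ replicate 3. Tpi1 overlaps Spsb2, and Gapdh overlaps Iffo1, on the opposite strand. Counts of the named pseudogenes of these enzymes were at most 0.977% of the parent's counts (Pgam1).

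Pyruvate dehydrogenase sends pyruvate into mitochondria and its kinase Pdk1 switches it off. With tau, Pdk1 had 48.0, 47.6 and 46.4 CPM in R47H/+ with MK-2206, 46.8, 39.1 and 46.7 CPM in R47H/+, and 55.0, 55.1 and 53.3 CPM in Trem2+/+. Without tau, Pdk1 stood at 34.8, 33.8 and 35.5 CPM in R47H/+ with MK-2206, 40.9, 44.1 and 43.6 CPM in R47H/+, and 57.2, 57.5 and 58.2 CPM in Trem2+/+. The Trem2+/+ libraries were above the R47H/+ libraries both with and without tau, and the MK-2206 libraries without tau were the lowest. Pdha1, a subunit of the dehydrogenase, ranged between 43.7 and 64.2 CPM; its row overlaps Map3k15 on the opposite strand, whose row held 1859 counts over all libraries against 17726 for Pdha1.

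G6pdx (ENSMUSG00000031400, chrX:74409483-74429194, - strand) encodes the enzyme that opens the oxidative branch of the pentose phosphate pathway and makes NADPH. With tau, G6pdx was at 157, 171 and 163 CPM in R47H/+ with MK-2206, 170.5, 169.5 and 189 CPM in R47H/+, and 185, 194 and 198 CPM in Trem2+/+. Without tau, G6pdx had 124, 121 and 120.3 CPM in R47H/+ with MK-2206, 116, 109 and 112 CPM in R47H/+, and 149, 157 and 94.4 CPM in Trem2+/+. Every tau library was above every library without tau, the nearest of them (157 CPM each) by less than the rounding, and Trem2+/+ replicate 3 was the lowest of the 18; the row overlaps Ikbkg on the opposite strand. Pgd makes NADPH at a later step of the same branch. With tau, Pgd stood at 291, 290.5 and 292 CPM in R47H/+ with MK-2206, 289.7, 371 and 319.6 CPM in R47H/+, and 416, 407 and 423 CPM in Trem2+/+. Without tau, Pgd was at 264, 267 and 276 CPM in R47H/+ with MK-2206, 253, 234 and 236 CPM in R47H/+, and 377, 418 and 537 CPM in Trem2+/+. Trem2+/+ libraries were above R47H/+ libraries in both states. Taldo1, transaldolase, belongs to the branch that returns sugars to glycolysis. With tau, Taldo1 had 263, 251 and 271 CPM in R47H/+ with MK-2206, 209.9, 355 and 219 CPM in R47H/+, and 374, 374 and 360.2 CPM in Trem2+/+. Without tau, Taldo1 stood at 269, 271 and 297 CPM in R47H/+ with MK-2206, 253, 249.6 and 241 CPM in R47H/+, and 335, 368 and 696 CPM in Trem2+/+. Trem2+/+ replicate 3 stood far above the rest, and the other Trem2+/+ libraries were above all R47H/+ libraries without tau. Tkt, transketolase, works with transaldolase. With tau, Tkt was at 362, 350.0 and 338 CPM in R47H/+ with MK-2206, 294, 364 and 311 CPM in R47H/+, and 428, 429 and 421 CPM in Trem2+/+. Without tau, Tkt had 397, 381 and 424 CPM in R47H/+ with MK-2206, 395, 395 and 380.2 CPM in R47H/+, and 414, 458 and 557 CPM in Trem2+/+. With tau, the Trem2+/+ libraries were above all R47H/+ libraries.

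Hif1a (ENSMUSG00000021109, chr12:73901375-73947530, + strand) encodes the oxygen-regulated subunit of the factor, which is controlled mainly through protein stability. With tau, Hif1a stood at 109, 144 and 135 CPM in R47H/+ with MK-2206, 150.1, 115 and 123 CPM in R47H/+, and 118, 121 and 156 CPM in Trem2+/+. Without tau, Hif1a was at 123, 104 and 119 CPM in R47H/+ with MK-2206, 127, 131 and 120.3 CPM in R47H/+, and 133, 146 and 147 CPM in Trem2+/+. Its 18 values lay between 104 and 156 CPM, and the groups with tau overlapped each other. Without tau, all R47H/+ libraries, with or without MK-2206, were below all Trem2+/+ libraries, though Hif1a was not called in either comparison. Egln3 (ENSMUSG00000035105, chr12:54178981-54203860, - strand) encodes a prolyl hydroxylase that marks HIF1A for degradation and is itself a known HIF target. With tau, Egln3 had 1.55, 0.83 and 1.47 CPM in R47H/+ with MK-2206, 0.91, 1.38 and 1.43 CPM in R47H/+, and 1.96, 2.85 and 2.10 CPM in Trem2+/+. Without tau, Egln3 stood at 3.60, 3.57 and 4.15 CPM in R47H/+ with MK-2206, 2.47, 2.69 and 3.29 CPM in R47H/+, and 6.65, 7.06 and 5.53 CPM in Trem2+/+. Trem2+/+ without tau was above all other libraries, and in each of the 3 kinds of culture every tau library was below every library without tau. P4ha1 encodes a collagen prolyl hydroxylase. With tau, P4ha1 was at 213, 214 and 213 CPM in R47H/+ with MK-2206, 225, 250.4 and 229.9 CPM in R47H/+, and 199.8, 201 and 202 CPM in Trem2+/+. Without tau, P4ha1 had 139, 139 and 138 CPM in R47H/+ with MK-2206, 144, 154 and 142 CPM in R47H/+, and 114, 121 and 135 CPM in Trem2+/+. Its tau libraries were above all libraries without tau, whatever the genotype or inhibitor. Vegfa, the angiogenic growth factor, lies 2.31 Mb from Trem2 on chromosome 17. With tau, Vegfa stood at 11.8, 8.20 and 11.8 CPM in R47H/+ with MK-2206, 11.7, 10.4 and 12.2 CPM in R47H/+, and 9.42, 12.01 and 8.52 CPM in Trem2+/+. Without tau, Vegfa was at 17.6, 18.7 and 19.9 CPM in R47H/+ with MK-2206, 13.01, 11.6 and 11.6 CPM in R47H/+, and 19.0, 14.2 and 10.1 CPM in Trem2+/+. The MK-2206 libraries without tau were above those with tau, and the remaining groups overlapped. Bnip3, a mitophagy receptor, ranged between 8.88 and 17.5 CPM, and Ero1l, an oxidoreductase of the endoplasmic reticulum, between 23.8 and 37.5 CPM.

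**Figure D2:**
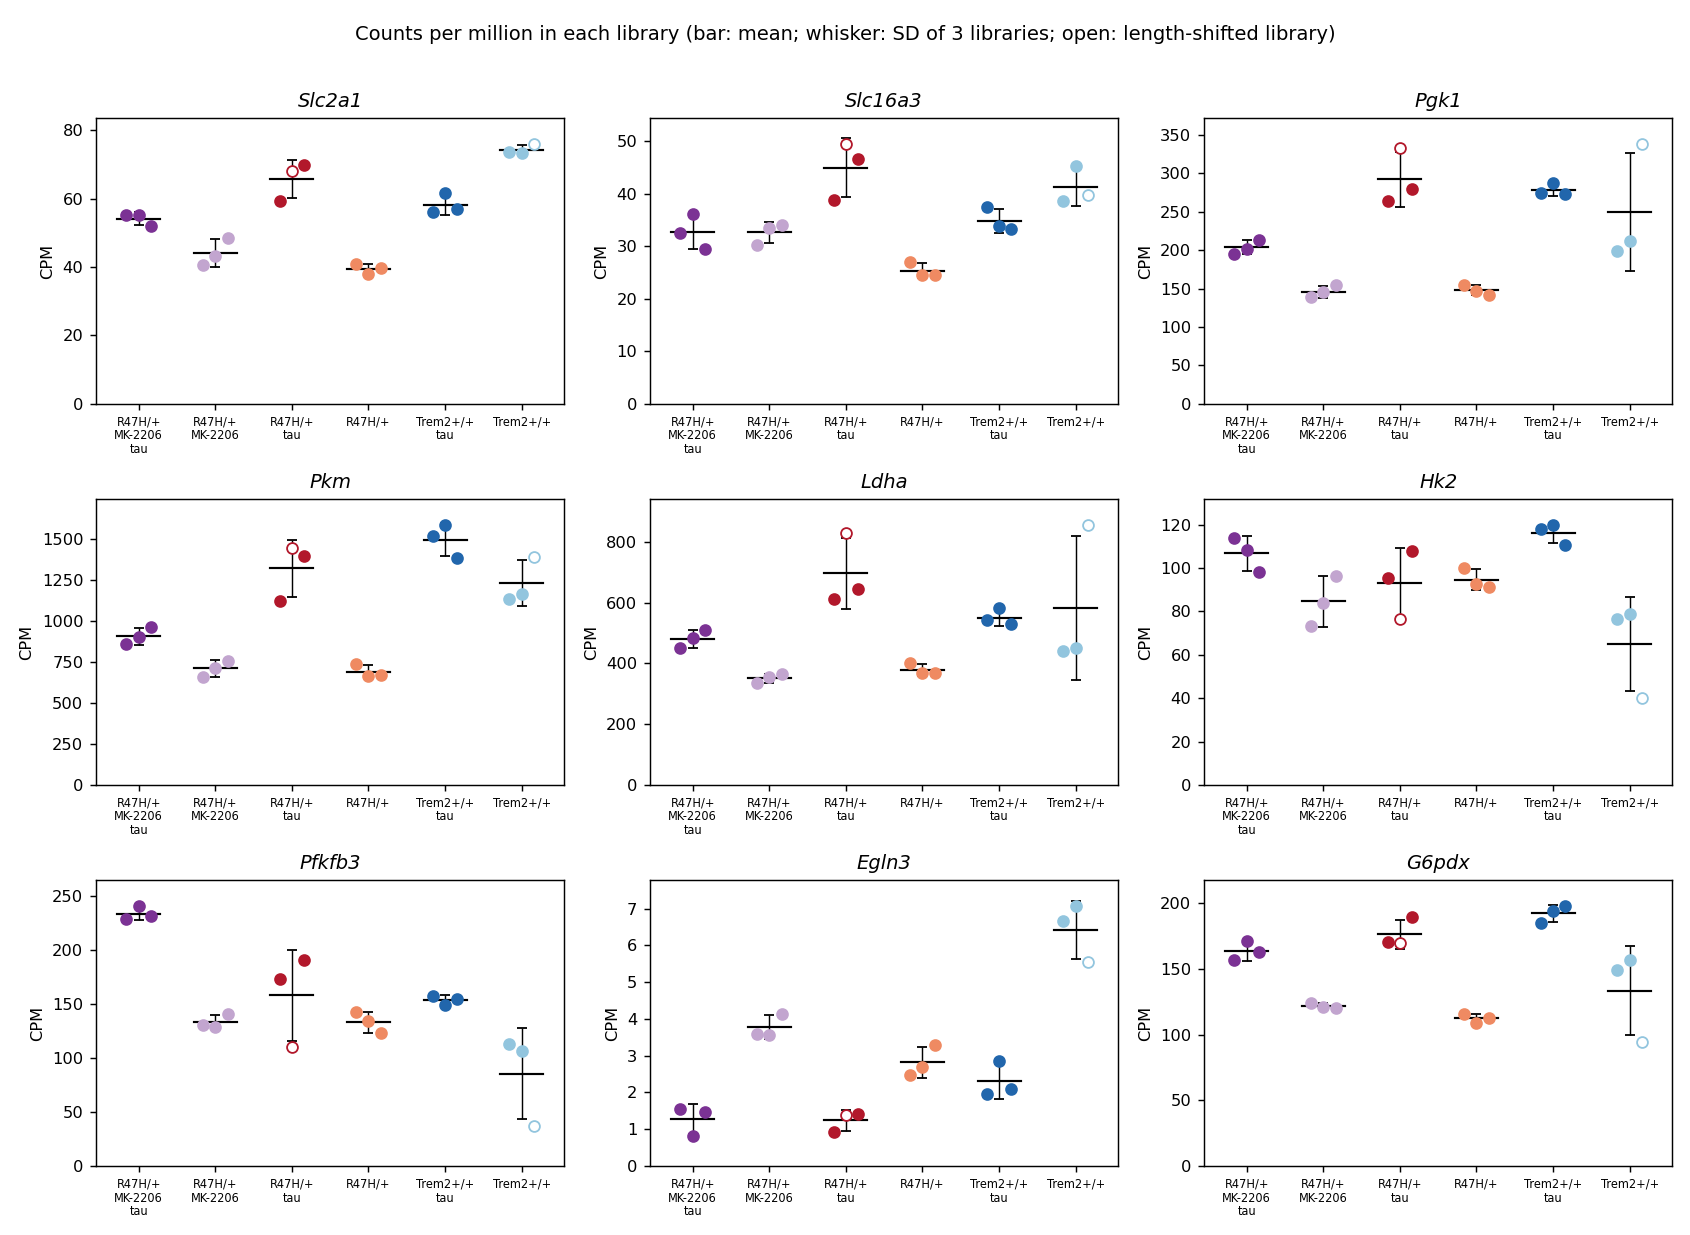
CPM in each library for 9 members, by group, with the group mean (bar) and SD of 3 libraries (whisker); open points are the 2 length-shifted libraries. Slc2a1 and Egln3 are highest in Trem2+/+ without tau, at 73.2 to 75.9 CPM and 5.53 to 7.06 CPM, while Pfkfb3 is highest in R47H/+ with MK-2206 and tau.

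The comparison of genotypes without tau sets R47H/+ cells against Trem2+/+ cells. No group carries an hTrem2 allele without R47H, so the variant and the human allele cannot be told apart. The glucose carrier gene Slc2a1, 7 of the 8 lower glycolysis genes, the oxidative pentose phosphate enzyme gene Pgd and Egln3 were lower in R47H/+ than in Trem2+/+ cells, while Slc2a3, another glucose carrier gene, was higher. In log2 fold change ± SE, Slc2a1 stood at -0.91 ± 0.10, adjusted p = 4.53e-06, and its mean was 39.4 ± 1.47 CPM in R47H/+ and 74.2 ± 1.48 CPM in Trem2+/+ (SD, n = 3 each, edgeR). Egln3 changed by -1.19 ± 0.22, adjusted p = 0.00139, Taldo1 by -0.91 ± 0.23, adjusted p = 0.0122 and Pgd by -0.88 ± 0.12, adjusted p = 7.95e-05. Of the 8 lower glycolysis genes, 7 fell, among them Aldoa (-0.88 ± 0.17, adjusted p = 0.002), Pkm (-0.83 ± 0.12, adjusted p = 0.000104) and Eno1 (-0.80 ± 0.13, adjusted p = 0.000458). Pgk1 (-0.76 ± 0.16, adjusted p = 0.0034), Pfkl (-0.72 ± 0.16, adjusted p = 0.00647) and the lactate exporter Slc16a3 (-0.70 ± 0.12, adjusted p = 0.000547) fell too. Smaller falls were called for Ldha (-0.62 ± 0.20, adjusted p = 0.0433), Gapdh (-0.55 ± 0.16, adjusted p = 0.0254), Bnip3 (-0.56 ± 0.16, adjusted p = 0.0311), Pgam1 (-0.52 ± 0.10, adjusted p = 0.00237), Pdk1 (-0.43 ± 0.088, adjusted p = 0.00315) and Gpi1 (-0.41 ± 0.13, adjusted p = 0.0374). The 1 member that rose was Slc2a3 (1.35 ± 0.35, adjusted p = 0.015), at 1.97 ± 0.56 CPM in R47H/+ and 0.77 ± 0.053 CPM in Trem2+/+. Hk2 (0.54 ± 0.20, adjusted p = 0.0799) and Pfkfb3 (0.64 ± 0.28, adjusted p = 0.141) had positive values that did not pass. The median over the 32 members was -0.42, against -0.02 over all genes tested.

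Without both length-shifted libraries, 19 members were lower and 4 higher, where 13.1% of all genes were lower and 15.8% higher, and the median was -0.34. The log2 fold change then stood at -0.24, adjusted p = 0.0119 for Ldha, at -0.31, adjusted p = 0.000579 for Gapdh, at -0.48, adjusted p = 9.94e-06 for Pgk1 and at -0.51, adjusted p = 2.83e-06 for Taldo1, each over 1.5 times nearer to 0, and Bnip3 was no longer called (-0.37, adjusted p = 0.0554). The call of Slc2a3 was lost without replicate 2 of R47H/+ (adjusted p = 0.0829). The call of Gapdh was lost without replicates 1, 2 or 3 of R47H/+ (adjusted p = 0.0659 to 0.0883). The calls of Gpi1, Ldha and Bnip3 were lost without replicates 1, 2 or 3 of R47H/+ or replicate 3 of Trem2+/+ (adjusted p = 0.0604 to 0.124, 0.0895 to 0.132 and 0.0755 to 0.114). In a fit of these 6 libraries alone 12 of the 17 calls were lost, and those of Slc2a1, Slc16a3, Pkm, Pgd and Egln3 were not.

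**Figure D3:**
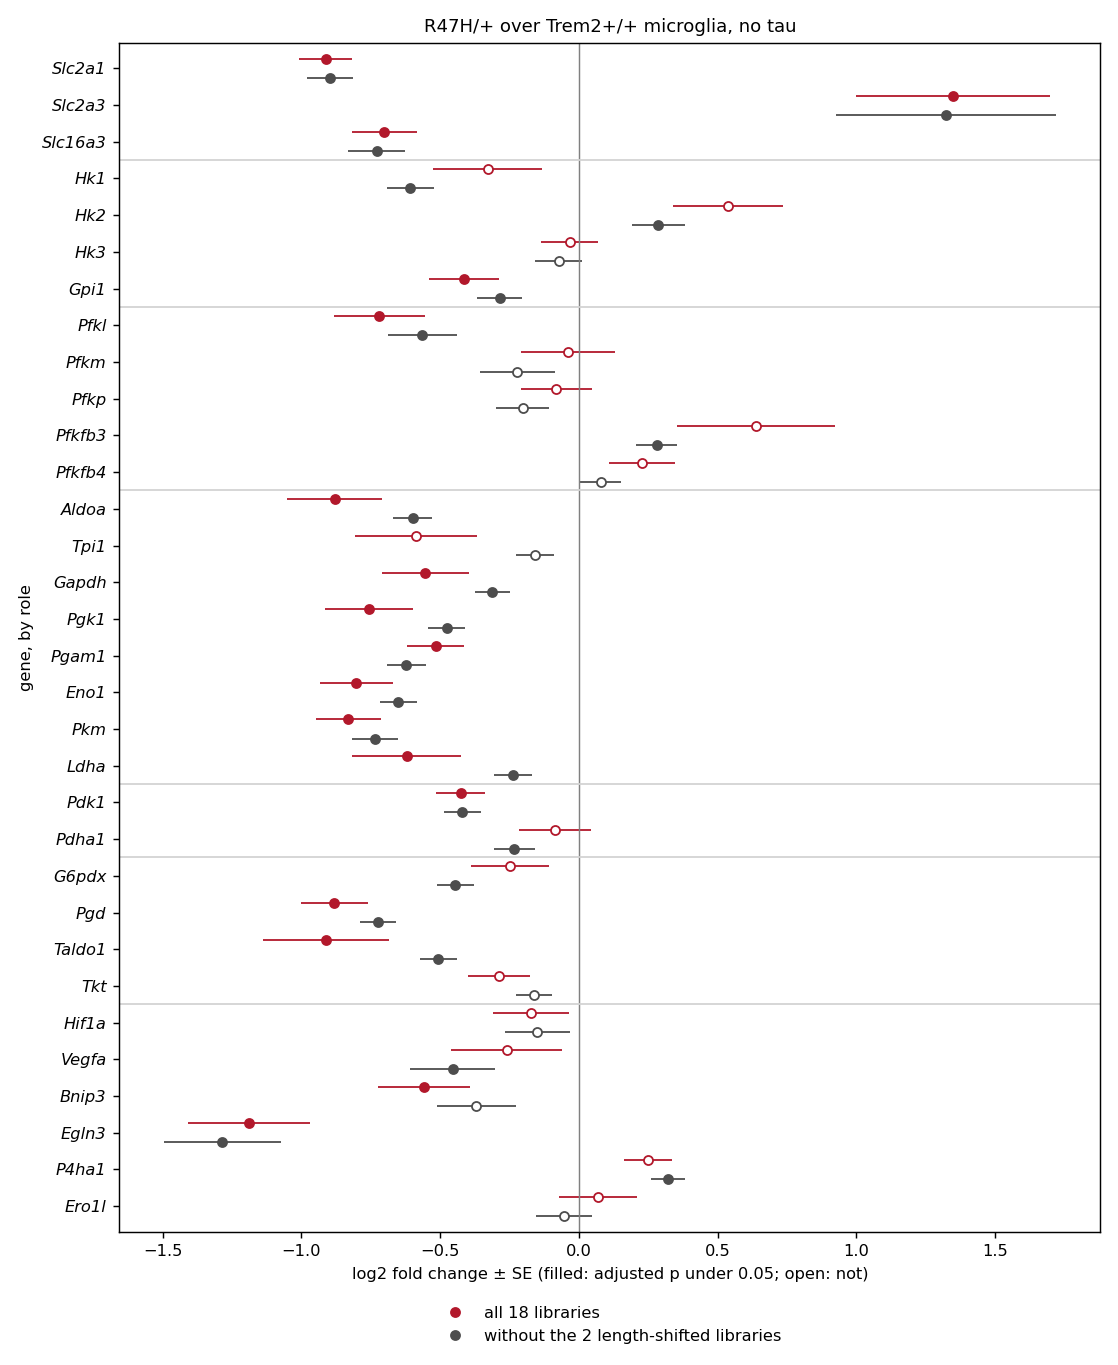
Log2 fold change ± SE of each of the 32 members in R47H/+ over Trem2+/+ without tau, with all 18 libraries (red) and without the 2 length-shifted libraries (grey); filled points passed an adjusted p of 0.05. Slc2a1 is at -0.91 and -0.90 in the 2 fits, while Ldha is at -0.62 and -0.24.

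With tau on both genotypes, fewer members were called, and fewer of all genes (1260, against 1997 without tau). The 4 members called were lower in R47H/+ than in Trem2+/+: Egln3 (-0.89 ± 0.25, adjusted p = 0.0344), Pfkfb4 (-0.60 ± 0.12, adjusted p = 0.00418), Tkt (-0.40 ± 0.11, adjusted p = 0.0319) and Pdk1 (-0.30 ± 0.088, adjusted p = 0.0402). Slc2a1 was at 0.18 ± 0.095, adjusted p = 0.283, Ldha at 0.34 ± 0.20, adjusted p = 0.328 and Pkm at -0.18 ± 0.12, adjusted p = 0.39, and none of the 8 lower glycolysis genes was called with all libraries; without both length-shifted libraries Aldoa, Pgam1, Eno1 and Pkm were lower and Ldha higher. The median was -0.12, against -0.0021 over all genes. At an unadjusted p under 0.05 there were 4 higher and 10 lower. The share of all genes at that cut is not given here or below, so such counts are only a description. DESeq2 called 3 higher and 6 lower (979 and 766 of all genes). With both length-shifted libraries left out, 5 members were higher and 14 lower (11.9% and 11.4% of all genes). The members called in that fit were thus 19 with tau, against 23 without tau. The call of Pdk1 was lost without replicates 2 or 3 of R47H/+ with tau or replicates 1, 2 or 3 of Trem2+/+ with tau (adjusted p = 0.0532 to 0.175). The call of Tkt was lost without replicates 1 or 3 of R47H/+ with tau or replicates 1, 2 or 3 of Trem2+/+ with tau (adjusted p = 0.0712 to 0.119). The call of Egln3 was lost without any 1 of the libraries compared (adjusted p = 0.0512 to 0.157). In a fit of these 6 libraries alone Pfkfb4 kept its call and the other 3 did not.

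Tau fibrils were added to ask how microglia of each genotype respond. In R47H/+ cells tau raised the carriers Slc2a1 and Slc16a3 and 7 of the 8 lower glycolysis genes. The largest rises were those of Pgk1 (0.98 ± 0.16, adjusted p = 0.000183), Pkm (0.93 ± 0.12, adjusted p = 1.58e-05), Ldha (0.88 ± 0.20, adjusted p = 0.00309) and Hk3 (0.85 ± 0.10, adjusted p = 1.02e-05). Pkm averaged 1322 ± 173 CPM in R47H/+ with tau and 692 ± 38.7 CPM without (SD, n = 3 each, edgeR). Slc16a3 rose by 0.83 ± 0.12, adjusted p = 5.3e-05, Pfkl by 0.77 ± 0.16, adjusted p = 0.00221, Eno1 by 0.76 ± 0.13, adjusted p = 0.000344 and Slc2a1 by 0.74 ± 0.10, adjusted p = 2.26e-05. P4ha1 (0.68 ± 0.086, adjusted p = 1.66e-05), Aldoa (0.65 ± 0.17, adjusted p = 0.00918), Gapdh (0.65 ± 0.16, adjusted p = 0.00557) and G6pdx (0.65 ± 0.14, adjusted p = 0.00232) rose as well. Tpi1 (0.61 ± 0.22, adjusted p = 0.0493), Pfkp (0.49 ± 0.13, adjusted p = 0.00903) and Pgd (0.44 ± 0.12, adjusted p = 0.0119) completed the 15. Egln3 (-1.18 ± 0.25, adjusted p = 0.00195) and Pfkfb4 (-0.56 ± 0.12, adjusted p = 0.00202) fell. Hk2 stood at -0.021 ± 0.20, adjusted p = 0.955 and Hif1a at 0.039 ± 0.14, adjusted p = 0.87, neither called. The median was 0.33, against 0.00 over all genes, and without both length-shifted libraries 17 members were higher and 5 lower (21.6% and 21.1% of all genes). The call of Pgd was lost without replicate 2 of R47H/+ with tau or replicate 2 of R47H/+ (adjusted p = 0.0501 to 0.0694). The call of Tpi1 was lost without replicates 2 or 3 of R47H/+ with tau or replicates 1, 2 or 3 of R47H/+ (adjusted p = 0.0603 to 0.258). The call of Aldoa was lost without replicate 2 of R47H/+ with tau (adjusted p = 0.0602). Without both libraries Tpi1 was at 0.38, adjusted p = 8.71e-05, and Taldo1, not called with all libraries (0.076 ± 0.23, adjusted p = 0.84), was lower (-0.22, adjusted p = 0.0102).

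In Trem2+/+ cells tau raised the 3 hexokinases, Pfkfb3, G6pdx and P4ha1 and lowered Egln3 and Slc2a1. Pfkfb3 rose by 0.85 ± 0.28, adjusted p = 0.0375, Hk2 by 0.83 ± 0.20, adjusted p = 0.00486, P4ha1 by 0.71 ± 0.086, adjusted p = 1.09e-05 and Hk1 by 0.68 ± 0.20, adjusted p = 0.018. Hk3 (0.55 ± 0.10, adjusted p = 0.00065) and G6pdx (0.53 ± 0.14, adjusted p = 0.0104) rose too, while Egln3 (-1.48 ± 0.22, adjusted p = 0.000101) and Slc2a1 (-0.35 ± 0.095, adjusted p = 0.0114) fell. Slc2a1 averaged 58.1 ± 3.01 CPM in Trem2+/+ with tau and 74.2 ± 1.48 CPM without. None of the 8 lower glycolysis genes was called with all libraries, and their values lay between -0.26 (Tpi1) and 0.28 (Pkm); without both length-shifted libraries 6 of them were higher (Aldoa, Gapdh, Pgk1, Eno1, Pkm and Ldha) and Pgam1 was lower. The median over the 32 members was -0.03, against -0.04 over all genes. Trem2+/+ replicate 3 is in this comparison: without it 9 members were higher and 4 lower, where 4188 of all genes were called in either direction. Without both length-shifted libraries 13 members were higher and 6 lower (21.6% and 19.8% of all genes). Ldha, at -0.080 ± 0.20, adjusted p = 0.796 with all libraries, was at 0.29, adjusted p = 0.00162 without both. Pfkfb3 was then at 0.47, adjusted p = 1.5e-05, Hk1 at 0.39, adjusted p = 0.000704 and G6pdx at 0.32, adjusted p = 0.000543. The call of Pfkfb3 was lost without replicates 1, 2 or 3 of Trem2+/+ with tau (adjusted p = 0.0738 to 0.0853). The call of Slc2a1 was lost without replicate 1 of Trem2+/+ with tau (adjusted p = 0.0509). The call of Hk1 was lost without replicates 1 or 2 of Trem2+/+ with tau (adjusted p = 0.0529 to 0.0532). In a fit of these 6 libraries alone P4ha1 and Egln3 kept their calls and the other 6 did not.

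In R47H/+ cells with MK-2206, tau raised 8 members and lowered 4. Pfkfb3 rose by 0.81 ± 0.28, adjusted p = 0.0464, P4ha1 by 0.62 ± 0.086, adjusted p = 4.1e-05, Hk3 by 0.51 ± 0.10, adjusted p = 0.0011 and Pgk1 by 0.48 ± 0.16, adjusted p = 0.033. Pdk1 (0.45 ± 0.088, adjusted p = 0.00106), G6pdx (0.42 ± 0.14, adjusted p = 0.0348), Pkm (0.35 ± 0.12, adjusted p = 0.0345) and Slc2a1 (0.29 ± 0.10, adjusted p = 0.0311) rose by less. Egln3 (-1.54 ± 0.24, adjusted p = 0.000138), Slc2a3 (-1.26 ± 0.36, adjusted p = 0.0148), Vegfa (-0.82 ± 0.20, adjusted p = 0.00552) and Pgam1 (-0.33 ± 0.10, adjusted p = 0.025) fell. Vegfa averaged 10.6 ± 2.06 CPM with MK-2206 and tau and 18.7 ± 1.11 CPM with MK-2206 alone. The median was 0.23, against -0.03 over all genes, and without both length-shifted libraries, neither of which is in this comparison, 16 members were higher and 7 lower (22.7% and 25.3% of all genes). The calls of Pfkfb3, G6pdx and Pgk1 were lost without any 1 of the libraries compared (adjusted p = 0.0877 to 0.126, 0.0566 to 0.105 and 0.0554 to 0.106). The call of Slc2a1 was lost without replicates 1 or 2 of R47H/+ with MK-2206 and tau or replicates 1 or 2 of R47H/+ with MK-2206 (adjusted p = 0.0876 to 0.139). The call of Slc2a3 was lost without replicates 2 or 3 of R47H/+ with MK-2206 and tau or replicate 1 of R47H/+ with MK-2206 (adjusted p = 0.076 to 0.0867). The call of Pkm was lost without replicates 2 or 3 of R47H/+ with MK-2206 and tau or replicates 1 or 2 of R47H/+ with MK-2206 (adjusted p = 0.0799 to 0.132). The call of Pgam1 was lost without replicates 2 or 3 of R47H/+ with MK-2206 and tau or replicates 1, 2 or 3 of R47H/+ with MK-2206 (adjusted p = 0.052 to 0.116). With tau, Hk3, G6pdx and P4ha1 rose and Egln3 fell in all 3 kinds of culture, and Slc2a1, Pgk1 and Pkm rose in R47H/+ cells both with and without MK-2206.

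**Figure D4:**
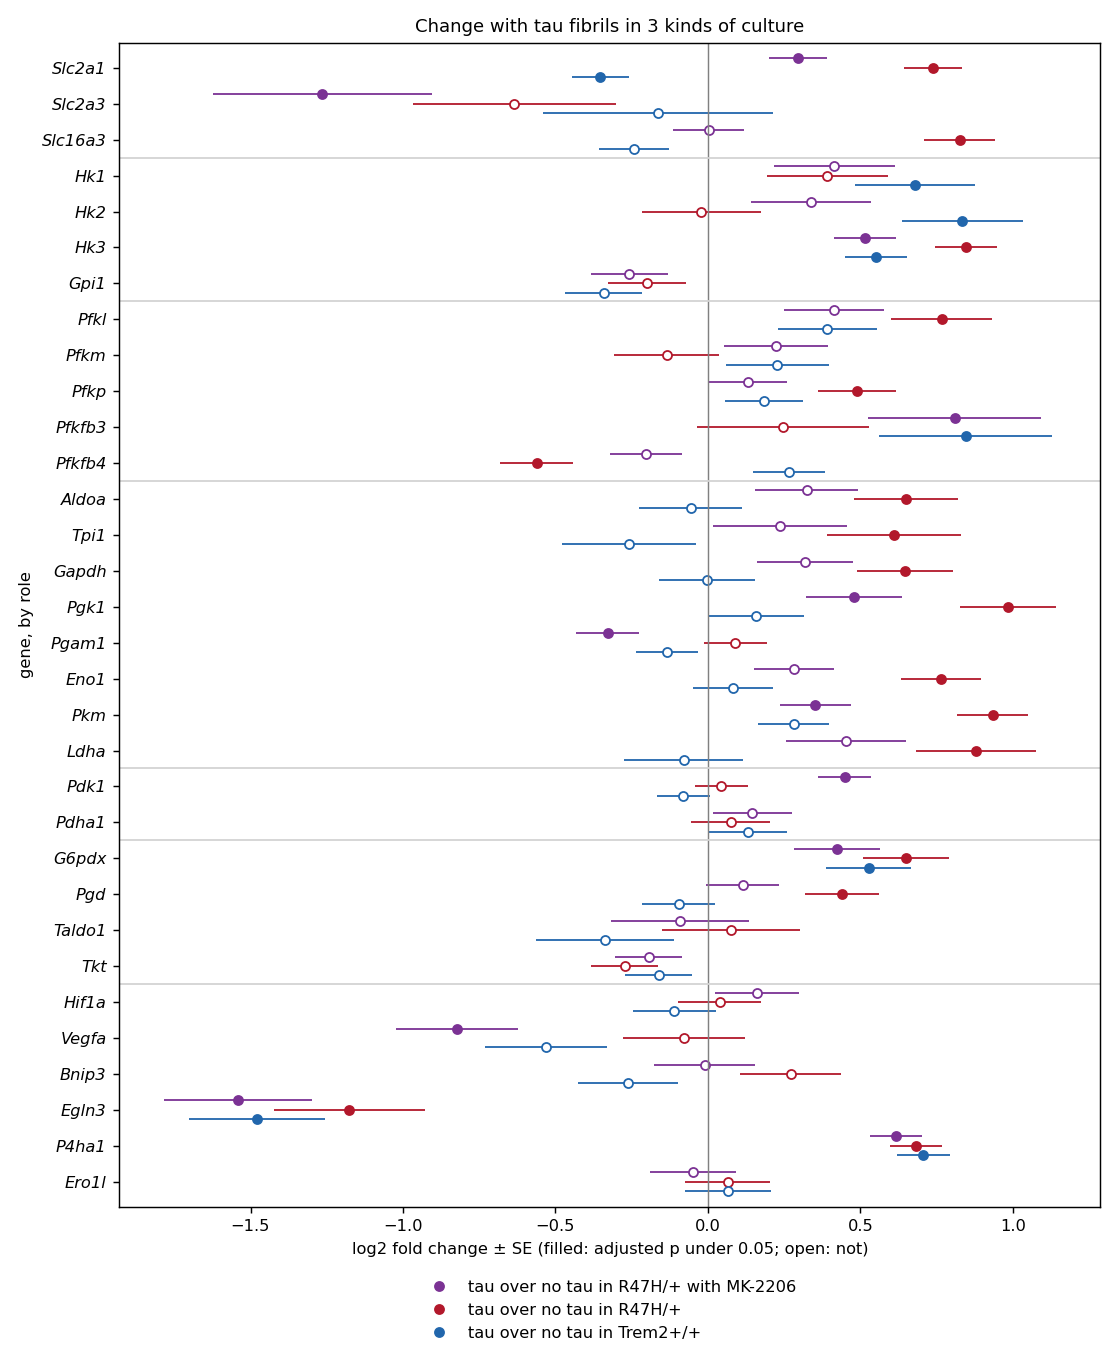
Log2 fold change ± SE with tau of each of the 32 members in R47H/+ cells with MK-2206 (purple), in R47H/+ cells (red) and in Trem2+/+ cells (blue), with all 18 libraries; filled points passed an adjusted p of 0.05. Slc2a1 lies at 0.29, 0.74 and -0.35 in the 3 kinds of culture, and Egln3 and P4ha1 are filled in all 3.

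Whether the change with tau differed between genotypes was tested directly, as the change in R47H/+ minus the change in Trem2+/+. It differed for 6 members (2.05% of all genes were higher and 3.32% lower). It was higher in R47H/+ for Slc2a1 by 1.09 ± 0.13, adjusted p = 0.000119, Slc16a3 by 1.07 ± 0.16, adjusted p = 0.00082, Pgk1 by 0.82 ± 0.22, adjusted p = 0.0392, Eno1 by 0.68 ± 0.18, adjusted p = 0.0413 and Pkm by 0.65 ± 0.16, adjusted p = 0.0277, and lower for Pfkfb4 (-0.83 ± 0.17, adjusted p = 0.00684). Slc2a1 thus rose with tau in R47H/+ (0.74) and fell in Trem2+/+ (-0.35). Hk2, at -0.86 ± 0.28, adjusted p = 0.0915, and Ldha, at 0.96 ± 0.28, adjusted p = 0.0573, did not pass. The median was 0.30, against -0.01 over all genes, and without both length-shifted libraries 9 members were higher and 3 lower (4.54% and 7.39% of all genes), with Pgk1 at 0.44, adjusted p = 0.00267 and Eno1 at 0.37, adjusted p = 0.00896. The call of Pgk1 was lost without replicates 2 or 3 of R47H/+ with tau, replicates 1, 2 or 3 of R47H/+ or replicates 1, 2 or 3 of Trem2+/+ with tau (adjusted p = 0.0583 to 0.11). The call of Eno1 was lost without replicate 2 of R47H/+ with tau, replicates 1, 2 or 3 of R47H/+ or replicates 1, 2 or 3 of Trem2+/+ with tau (adjusted p = 0.0738 to 0.108). The call of Pkm was lost without replicates 2 or 3 of R47H/+ with tau, replicates 2 or 3 of R47H/+ or replicates 1 or 3 of Trem2+/+ with tau (adjusted p = 0.0641 to 0.0789). In a fit of these 12 libraries alone the calls of Slc2a1 and Slc16a3 stood and the other 4 did not.

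MK-2206 was used to ask what Akt inhibition changes in R47H/+ cells. Without tau, edgeR called 0 of the 32 members. At an unadjusted p under 0.05 there were 3 higher and 1 lower. DESeq2 called 2 higher and 1 lower (278 and 305 of all genes). Slc16a3 was at 0.36 ± 0.12, adjusted p = 0.143, Vegfa at 0.64 ± 0.20, adjusted p = 0.131, Pdk1 at -0.31 ± 0.088, adjusted p = 0.0942 and Egln3 at 0.42 ± 0.22, adjusted p = 0.545. The median was 0.02, against -0.01 over all genes. Leaving out both length-shifted libraries, 5 members were higher and 2 lower (6.82% and 7.10% of all genes). In a fit of the 6 compared libraries alone 8 members were called, 6 higher and 2 lower. That fit called 1115 of all genes higher and 1121 lower.

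With tau present, MK-2206 lowered Pkm (-0.54 ± 0.12, adjusted p = 0.019) and Slc16a3 (-0.46 ± 0.12, adjusted p = 0.0449). Pkm averaged 908 ± 51.8 CPM in R47H/+ with MK-2206 and tau and 1322 ± 173 CPM in R47H/+ with tau (SD, n = 3 each, edgeR). Gapdh (-0.53 ± 0.16, adjusted p = 0.0882), Ldha (-0.53 ± 0.20, adjusted p = 0.191), Pgk1 (-0.52 ± 0.16, adjusted p = 0.0955) and Pfkfb3 (0.56 ± 0.28, adjusted p = 0.369) did not pass. The median was -0.13, against -0.0056 over all genes. At an unadjusted p under 0.05 there were 1 higher and 11 lower. DESeq2 called 0 higher and 5 lower (409 and 344 of all genes). Without both length-shifted libraries 4 members were higher and 8 lower (6.28% and 5.73% of all genes). The calls of Pkm and Slc16a3 were lost without replicates 1, 2 or 3 of R47H/+ with MK-2206 and tau or replicates 2 or 3 of R47H/+ with tau (adjusted p = 0.0548 to 0.109 and 0.0618 to 0.205). Neither call was kept when the model held the 6 compared libraries and no others. The change with tau differed between R47H/+ cells with and without MK-2206 for Slc16a3 (-0.82 ± 0.16, adjusted p = 0.0416) and for no other member (0.181% of all genes were higher and 0.196% lower). The call of Slc16a3 was lost without replicates 1, 2 or 3 of R47H/+ with MK-2206 and tau, replicates 1, 2 or 3 of R47H/+ with MK-2206, replicates 2 or 3 of R47H/+ with tau or replicates 1, 2 or 3 of R47H/+ (adjusted p = 0.0596 to 0.143). At an unadjusted p under 0.05 this interaction had 2 higher and 8 lower members. DESeq2 called 1 higher and 3 lower (116 and 104 of all genes). Without both length-shifted libraries the interaction had 2 higher and 7 lower (2.76% and 2.19% of all genes).

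**Figure D5:**
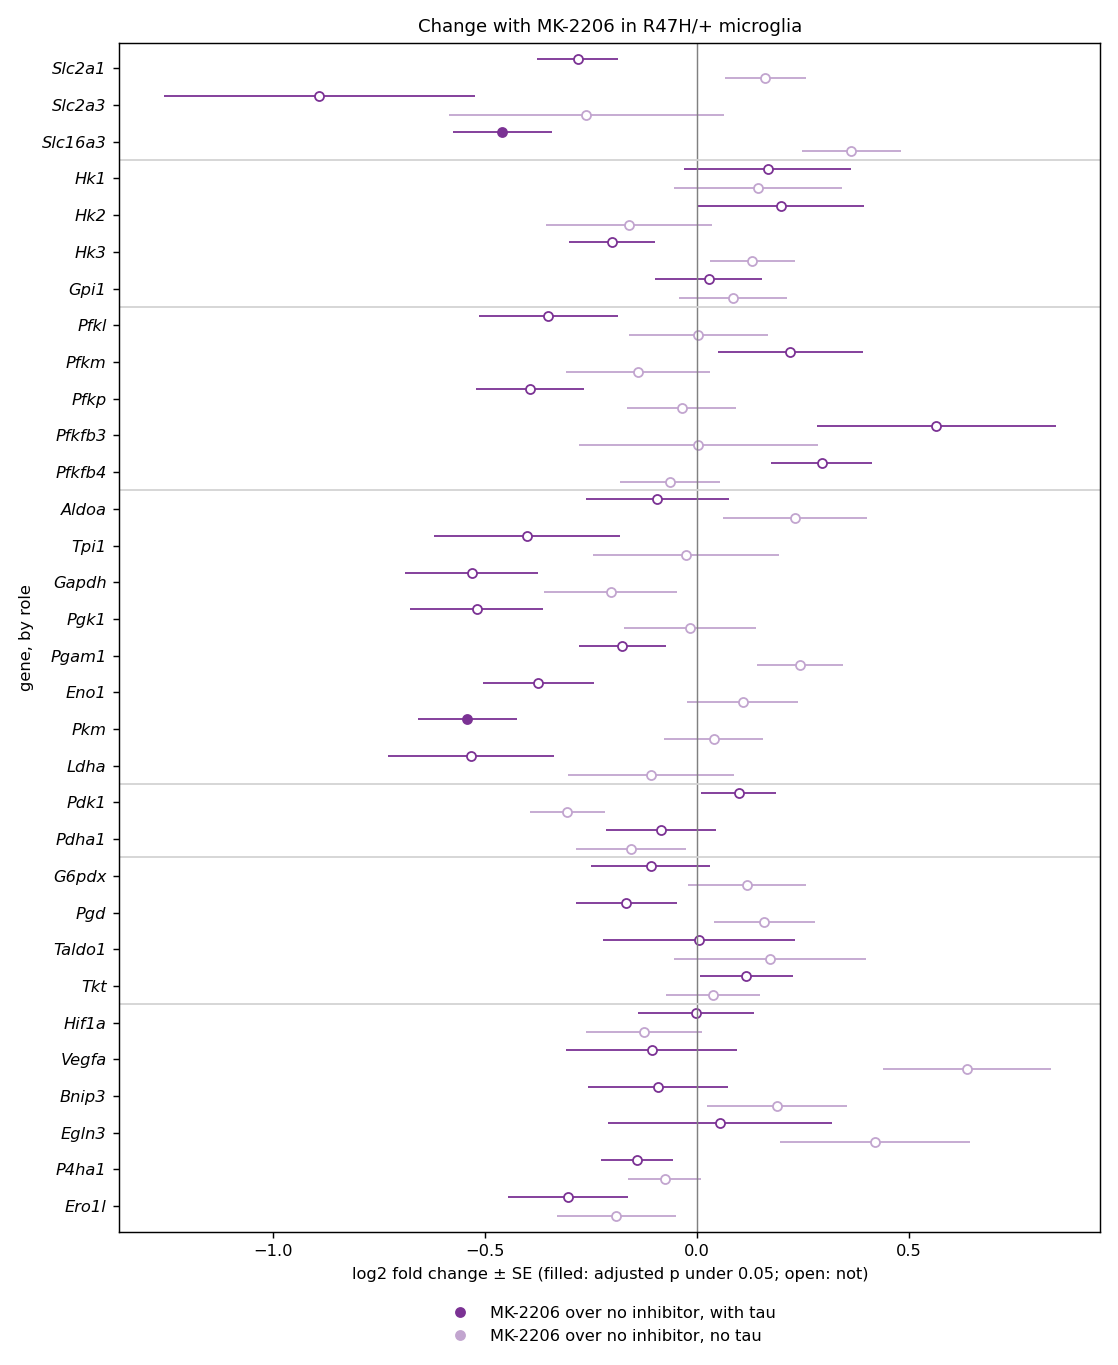
Log2 fold change ± SE of each of the 32 members in R47H/+ cells with MK-2206 over those without it, with tau (dark) and without tau (light), with all 18 libraries; filled points passed an adjusted p of 0.05. Without tau no point is filled, and with tau those of Pkm at -0.54 and Slc16a3 at -0.46 are.

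Inhibitor-treated R47H/+ cells were also set against Trem2+/+ cells without inhibitor, which differ in both genotype and inhibitor. Without tau, 12 members were lower and 0 higher (5.71% of all genes lower, 6.84% higher), and all 12 were also among the 16 lower in R47H/+ cells without inhibitor, against the same 3 Trem2+/+ libraries. Pkm was at -0.79 ± 0.12, adjusted p = 0.000218, Pgk1 at -0.77 ± 0.16, adjusted p = 0.00345, Egln3 at -0.77 ± 0.22, adjusted p = 0.0276 and Gapdh at -0.76 ± 0.16, adjusted p = 0.00406. Slc2a1 (-0.75 ± 0.10, adjusted p = 5.19e-05), Pdk1 (-0.73 ± 0.088, adjusted p = 2.87e-05), Ldha (-0.73 ± 0.20, adjusted p = 0.022), Taldo1 (-0.74 ± 0.23, adjusted p = 0.0432), Pgd (-0.72 ± 0.12, adjusted p = 0.000674), Pfkl (-0.72 ± 0.16, adjusted p = 0.0081), Eno1 (-0.70 ± 0.13, adjusted p = 0.00195) and Aldoa (-0.65 ± 0.17, adjusted p = 0.0189) were lower as well. At an unadjusted p under 0.05 there were 2 higher and 19 lower. DESeq2 called 1 higher and 15 lower (1124 and 1113 of all genes). Once both length-shifted libraries were left out, 2 members were higher and 17 lower (14.7% and 10.9% of all genes), with Taldo1 at -0.33, adjusted p = 0.000627, Ldha at -0.34, adjusted p = 0.000686, Aldoa at -0.36, adjusted p = 0.000412 and Pgk1 at -0.49, adjusted p = 8.54e-06. The call of Ldha was lost without replicates 1, 2 or 3 of R47H/+ with MK-2206 (adjusted p = 0.0606 to 0.0829). The call of Aldoa was lost without replicates 1 or 2 of R47H/+ with MK-2206 (adjusted p = 0.0728 to 0.0736). The call of Taldo1 was lost without replicates 1, 2 or 3 of R47H/+ with MK-2206 or replicate 3 of Trem2+/+ (adjusted p = 0.0916 to 0.139). The call of Pfkl was lost without replicate 1 of R47H/+ with MK-2206 (adjusted p = 0.0517). The call of Egln3 was lost without replicates 1, 2 or 3 of R47H/+ with MK-2206 or replicate 2 of Trem2+/+ (adjusted p = 0.0562 to 0.105). In a fit of these 6 libraries alone Slc2a1 and Pdk1 kept their calls and the other 10 did not.

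With tau on both, 5 members were lower in R47H/+ with MK-2206 than in Trem2+/+ and 0 were higher (3.07% of all genes were lower and 7.07% were called in either direction): Pkm (-0.72 ± 0.12, adjusted p = 0.00119), Pfkl (-0.70 ± 0.16, adjusted p = 0.0154), Pgd (-0.51 ± 0.12, adjusted p = 0.015), Eno1 (-0.50 ± 0.13, adjusted p = 0.0294) and Pgam1 (-0.47 ± 0.10, adjusted p = 0.00978). Slc2a1 was at -0.10 ± 0.10, adjusted p = 0.673 and Pfkfb3 at 0.61 ± 0.28, adjusted p = 0.264. At an unadjusted p under 0.05 there were 1 higher and 13 lower. DESeq2 called 0 higher and 6 lower (841 and 522 of all genes). Without both length-shifted libraries, neither of which is in this comparison, 1 member was higher and 18 were lower (14.2% and 13.2% of all genes). The call of Pgd was lost without replicates 1, 2 or 3 of R47H/+ with MK-2206 and tau or replicate 1 of Trem2+/+ with tau (adjusted p = 0.0565 to 0.0685). The call of Eno1 was lost without any 1 of the libraries compared (adjusted p = 0.0697 to 0.115). The call of Pfkl was lost without replicates 1, 2 or 3 of R47H/+ with MK-2206 and tau or replicates 1 or 2 of Trem2+/+ with tau (adjusted p = 0.0533 to 0.0811). The call of Pgam1 was lost without replicate 2 of R47H/+ with MK-2206 and tau (adjusted p = 0.0638). The members thus called lower than in Trem2+/+ numbered 12 without tau and 5 with it, and whether the difference itself changed with tau was not tested for these groups.

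Around the members, 98 further genes of the same pathways were listed, of which 82 were tested. Without tau, 7 of the 82 were higher and 13 lower in R47H/+ than in Trem2+/+, where 8.22% and 6.83% of all genes were. Further glycolysis genes had 2 of 14 lower, the aldolase Aldoc (-1.42 ± 0.16, adjusted p = 7.69e-06) and the enolase Eno2 (-1.71 ± 0.21, adjusted p = 3.21e-05); Aldoc is also an astrocyte marker. Of the 17 other HIF-linked targets tested, 6 were lower and 1 higher, with Ankrd37 (-2.99 ± 0.50, adjusted p = 0.000542) and P4ha2 (-0.78 ± 0.16, adjusted p = 0.00352) among the lower. Of the 8 genes of the HIF pathway itself, 3 were lower, the repressor Bhlhe40 (-0.999 ± 0.13, adjusted p = 4.46e-05), the prolyl hydroxylase Egln1 (-0.48 ± 0.11, adjusted p = 0.00605) and Epas1, which encodes another HIF alpha subunit (-0.82 ± 0.22, adjusted p = 0.0204), and Cited2 was higher (0.38 ± 0.084, adjusted p = 0.00497). With tau on both genotypes 3 of the 82 were higher and 10 lower (5.25% and 4.24% of all genes), and Aldoc remained lower in R47H/+ (-1.88 ± 0.16, adjusted p = 4.33e-06), as did Epas1 (-1.40 ± 0.23, adjusted p = 0.00117). The counts without both length-shifted libraries were 16 higher and 17 lower without tau (15.8% and 13.1% of all genes), and 8 and 20 with tau (11.9% and 11.4%).

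With tau, 14 of the 82 were higher and 20 lower in R47H/+ cells with MK-2206, 8 and 20 in R47H/+ cells, and 14 and 18 in Trem2+/+ cells (22 and 33, 20 and 29, and 23 and 26 without both length-shifted libraries). Over all genes, 14.3% were higher and 11.3% lower with tau in R47H/+ cells with MK-2206, 15.0% and 12.6% in R47H/+ cells, and 14.4% and 12.1% in Trem2+/+ cells. Without both length-shifted libraries these shares were 22.7% and 25.3%, 21.6% and 21.1%, and 21.6% and 19.8%. The glucose transporter gene Slc2a6 rose by 3.55 ± 0.26, adjusted p = 4.66e-08 in R47H/+ cells with MK-2206, by 3.22 ± 0.26, adjusted p = 1.3e-07 in R47H/+ cells and by 3.02 ± 0.26, adjusted p = 1.75e-07 in Trem2+/+ cells. It averaged 323, 339 and 218 CPM with tau in these 3 kinds of culture, against 27.5, 36.3 and 26.9 CPM without tau. Slc16a1, which encodes the lactate and pyruvate carrier MCT1, fell in all 3 (-1.29, -0.95 and -1.13). Of the other HIF-linked targets, Ndrg1 (-3.27, -2.29 and -2.08) and Mxi1 (-1.16, -1.46 and -0.91) fell and Lox, a collagen cross-linking enzyme, rose (1.93, 1.74 and 1.95). In the HIF pathway Epas1 (-2.31, -2.26 and -1.68), Bhlhe40 (-1.74, -1.13 and -1.90) and Egln1 (-0.57, -0.51 and -0.52) fell in all 3. Within the pentose phosphate list, Rpe, an epimerase of the branch that rearranges sugars, rose (0.74, 0.60 and 0.78), and Prps2, which makes the nucleotide precursor from ribose phosphate, fell (-1.43, -1.64 and -0.71). The fall of Prps2 differed between genotypes (-0.93 ± 0.14, adjusted p = 0.000852), as did the changes of Eno2 (2.47 ± 0.31, adjusted p = 0.000143) and Bhlhe40 (0.78 ± 0.18, adjusted p = 0.0192).

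Without tau, MK-2206 changed none of the members by the edgeR test, but among these further genes of R47H/+ cells 7 of the 82 were higher and 2 lower, where 1.19% and 1.36% of all genes were. Ndrg1 rose by 1.68 ± 0.15, adjusted p = 1.8e-05, averaging 19.6 CPM with MK-2206 and 6.13 CPM without, and Eno2 by 1.52 ± 0.21, adjusted p = 0.000863. Bhlhe40 (0.70 ± 0.13, adjusted p = 0.00689), Mxi1 (0.52 ± 0.093, adjusted p = 0.00651) and Cited2 (0.36 ± 0.084, adjusted p = 0.0292) rose as well, and Pdgfb, a growth factor subunit, fell (-0.79 ± 0.15, adjusted p = 0.00812). With tau present, 2 of the 82 were higher with MK-2206 than without and 2 lower (1.64% and 1.40% of all genes). Mxi1 (0.81 ± 0.10, adjusted p = 0.000176) and Cited2 (0.46 ± 0.084, adjusted p = 0.00618) were higher and P4ha2 (-0.81 ± 0.18, adjusted p = 0.0228) was lower. The lists were chosen with earlier results of these data known, so their counts are a description.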

How the data were processed

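Libraries of primary microglia (18, in 6 groups of 3) were made with the NEBNext Ultra kit and sequenced as paired ends, per the labels' protocols. The authors deposited raw counts per gene with gene coordinates and lengths; the submitters' processing notes name STAR, featureCounts, DESeq2 and the builds GRCm38 and mm10, and versions, settings and strand handling are not given in the sources used here. In edgeR 4.0.16 (R 4.3.3), filterByExpr kept 13267 of 54532 genes, TMM scaling gave CPM, and a quasi-likelihood model with a mean for each group took in the 18 libraries together (12 residual degrees of freedom). The 9 pairwise comparisons and 2 interactions had two-sided F-tests, adjusted by Benjamini-Hochberg across the 13267 genes and called under 0.05; SE is the log2 fold change over the root of F. With 3 libraries a group an exact permutation test has a smallest p of 0.1 and was not used. Alternatives were DESeq2 1.42.0, its size factors in edgeR, no filter, the compared groups alone, a replicate block and leaving out single libraries; a fit without both length-shifted libraries was added after seeing the data. By the rule for named genes, values in every library are given for up to 4 called members a direction with the largest change and no overlap in each pairwise comparison, up to 3 in each interaction, and always Slc2a1, Hk2, Pfkfb3, Ldha, G6pdx, Hif1a and Egln3 (24 in all); listed pathway genes are named by smallest p. Members and lists were chosen with earlier results of these data known.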

Additional observations from a re-analysis of the deposited data

Results flagged for a closer look

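The change with tau differed between R47H/+ and Trem2+/+ cells, by the test of the interaction itself, for 6 of the 32 members. Of all genes tested, 2.05% were higher and 3.32% lower by this test. The difference in log2 fold change, R47H/+ minus Trem2+/+, was 1.09 for Slc2a1, 1.07 for Slc16a3, 0.82 for Pgk1, 0.68 for Eno1, 0.65 for Pkm and -0.83 for Pfkfb4 (edgeR, adjusted p = 0.000119, 0.00082, 0.0392, 0.0413, 0.0277 and 0.00684). The genotype calls of Pgk1, Eno1 and Pkm were lost on leaving out some single libraries. In a fit of the compared groups alone only those of Slc2a1 and Slc16a3 stood. The change with tau also differed between R47H/+ cells with and without MK-2206 for Slc16a3, by -0.82 (edgeR, adjusted p = 0.0416). Here 0.181% of all genes were higher and 0.196% lower. This call was lost for 11 of the 12 libraries left out 1 at a time. All 3 R47H/+ libraries with tau had more Slc2a1 than all 3 without, while all 3 Trem2+/+ libraries with tau had less than all 3 without. For Slc16a3 the same held of the R47H/+ libraries (38.7 to 49.4 CPM with tau, 24.4 to 27.0 CPM without), and with MK-2206 the libraries with and without tau overlapped (29.4 to 36.1 CPM with tau, 30.3 to 34.1 CPM without).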

How the results depend on the processing

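Over 32 members and 11 comparisons, DESeq2 lost 0 calls and added 29, its size factors in edgeR lost 2 and added 3, no count filter lost 24 and added 1, and a fit of the compared groups alone lost 37 and added 34. The counts of members called are given here as tau on R47H/+ with MK-2206 (12), on R47H/+ (17) and on Trem2+/+ (8), R47H/+ over Trem2+/+ without tau (17) and with tau (4), MK-2206 over none without tau (0) and with tau (2), R47H/+ with MK-2206 over Trem2+/+ without tau (12) and with tau (5), and the interactions of tau with genotype (6) and with MK-2206 (1). In a fit of the compared groups alone, 23, 18, 2, 5, 2, 8, 0, 2, 18, 2 and 1 were called, in that order. Without both length-shifted libraries there were 23, 22, 19, 23, 19, 7, 12, 19, 19, 12 and 9. With DESeq2 there were 9 for R47H/+ over Trem2+/+ with tau, 3 and 5 for MK-2206 without and with tau, and 11 and 4 for the interactions. Without a count filter there were 6 for tau with MK-2206, 1 for R47H/+ over Trem2+/+ with tau, 0 for MK-2206 with tau, 3 for R47H/+ with MK-2206 and tau over Trem2+/+ with tau, and 0 for the interaction with MK-2206. Leaving out 1 library at a time gave 5 to 9, 15 to 17, 5 to 13, 12 to 21, 1 to 3, 0 to 0, 0 to 2, 7 to 19, 1 to 4, 3 to 12 and 0 to 1, in the same order; the cause was not tested. The direction turned without both length-shifted libraries for tau in Trem2+/+ cells, where Gapdh stood at 0.23, Ldha at 0.29 and Aldoa at 0.21, and for tau in R47H/+ cells, where Taldo1 stood at -0.22, all 4 then called and none called before. No pairing by replicate number was seen: over 45 pairs with a shared number the correlation of deviations from the group means lay between -0.634 and 0.490 (median -0.0015), with 4 over 0.1, and 4 of 18 libraries correlated best with their own number. The lowest and the highest lay between Trem2+/+ without tau and R47H/+ with tau, the groups that hold the length-shifted libraries. Whether libraries with a shared number came from a shared culture or batch cannot be told from these values. With replicate number as a block 13 calls were lost and 0 added, and 1, 1 and 0 members were called for R47H/+ over Trem2+/+ with tau, MK-2206 with tau and the interaction with MK-2206. Over all 13267 genes, the number called in the fit of the compared groups alone was 6225 (3393 with all groups) for tau with MK-2206, 1311 (3519) for tau on Trem2+/+, 474 (1997) for R47H/+ over Trem2+/+ without tau, 2236 (338) and 220 (403) for MK-2206 without and with tau, 285 (1665) and 3269 (938) for R47H/+ with MK-2206 over Trem2+/+, and 360 (713) and 187 (50) for the interactions; DESeq2 called 583 and 753 for MK-2206, and 1194 and 220 for the interactions. No count filter gave 236 for MK-2206 with tau. Without both length-shifted libraries the numbers over all genes were 6475, 5773, 5589, 3907, 3141, 1878, 1620, 3447, 3699, 1610 and 667, in the order above. Depth limits the precision of members with few reads, such as Slc2a3 at 7 to 43 counts in a library.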

Other observations

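Genes that lie between the Akt pathway and glucose use, 16 in all and all tested, included 6 higher and 2 lower with tau in R47H/+ cells with MK-2206, 3 and 2 in R47H/+ cells, and 3 and 2 in Trem2+/+ cells, where 14.3% to 15.0% of all genes were higher and 11.3% to 12.6% lower. Myc, the transcription factor known to drive glycolytic genes, fell with tau in all 3, at -1.81 ± 0.19, adjusted p = 2.34e-06 with MK-2206, at -1.03 ± 0.18, adjusted p = 0.000418 in R47H/+ cells and at -2.23 ± 0.18, adjusted p = 8.44e-08 in Trem2+/+ cells (log2 fold change ± SE, edgeR). It was lower in R47H/+ than in Trem2+/+ cells without tau (-1.21 ± 0.17, adjusted p = 0.0001), at 7.58 ± 1.49 CPM in R47H/+ and 17.6 ± 2.98 CPM in Trem2+/+ (SD, n = 3 each). With tau, cells with MK-2206 had less Myc than cells without (-0.99 ± 0.20, adjusted p = 0.0122). Its partner Max rose with tau in the same 3 kinds of culture (0.61, 0.43 and 0.81). Txnip, which holds back glucose uptake, was lower with MK-2206 than without it in R47H/+ cells that had no tau (-0.36 ± 0.090, adjusted p = 0.0434). The glucose-sensing gene Arrdc4 rose with tau in R47H/+ cells (0.71 ± 0.11, adjusted p = 0.000119), and its change differed between genotypes (0.77 ± 0.15, adjusted p = 0.00597).

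At the entry of pyruvate into mitochondria, 12 further genes were tested. The kinase gene Pdk3 rose with tau by 1.48 ± 0.16, adjusted p = 3.68e-06 in R47H/+ cells with MK-2206, by 1.06 ± 0.16, adjusted p = 0.000124 in R47H/+ cells and by 1.04 ± 0.17, adjusted p = 0.000156 in Trem2+/+ cells. The phosphatase gene Pdp1, whose product opposes the kinases, fell (-0.89, -0.72 and -0.44). Pdp1 was higher in R47H/+ than in Trem2+/+ cells without tau (0.33 ± 0.10, adjusted p = 0.0326) and higher again with MK-2206 (0.38 ± 0.10, adjusted p = 0.0492).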
